A study of Mus musculus with 6 samples.

Results

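Cholesterol synthesis and its regulation were described through 27 genes named by a fixed list of enzymes, regulators and targets of the transcription factor SREBP2. All 27 were matched by gene symbol in the count table of 46078 genes, each to a single row, and all 27 were among the 14923 genes abundant enough to test. The list does not hold every enzyme of the pathway. RNA came from untreated C57BL/6JRj mice of 2 ages, 3 young mice of 2 to 3 months and 3 aged mice of 20 to 22 months. Cells of the proximal small intestine were released with EDTA and trypsin and sorted for EpCam, an epithelial surface protein, and against CD45, a leukocyte surface protein. Both groups carry the same strain label, and no allele, agent or diet is given for either. The 6 libraries were taken as 1 per mouse, because the series' text counts 3 mice of each age. The labels do not say so library by library and carry no replicate numbers, so the numbers used here follow accession order and pair no samples. Each p-value sets the age difference of a gene against the spread between these libraries, estimated in part from all genes tested.

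Cells build cholesterol from acetyl-CoA through mevalonate, isoprenoid diphosphates, squalene and lanosterol, and every later sterol derives from the ring closure that makes lanosterol. SREBP2, encoded by Srebf2, is held in the endoplasmic reticulum with its escort Scap by the Insig proteins while membrane sterol is plentiful. When sterol falls, the complex moves to the Golgi, SREBP2 is cleaved, and its released part switches on most genes of the pathway. The gut epithelium both makes cholesterol and takes it up from the diet and bile, and its dividing crypt cells need sterol for new membrane. As transcript level is what was measured here, SREBP2 cleavage and sterol content were not observed.

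SREBP2 acts with NF-Y and Sp1 at promoters, so the promoters of the list were searched for the letters TCACNCCA (the core of a sterol response element), CCAAT (the NF-Y box) and GGGCGG (the Sp1 box). Both strands were read in the RefSeq windows from 250 bases before to 50 bases after each start on GRCm38.p6, which held 23 of the 27 genes. Sqle, Fdps, Fdft1 and Stard4 had no window and were not searched, so the shares below leave them out. None of the 3 motifs contains another, though neighbouring matches can share end letters. CCAAT was found in 20 of the 23 genes (87.0%), against 41.1% of all 27025 genes in the table and 42.8% of those tested here. GGGCGG was also found in 20 of 23 (87.0%), against 38.2% of all genes and 67.1% of those tested. TCACNCCA was found in 3 of 23 (13.0%), against 4.97% and 4.54%. These 3 promoters, of the mevalonate enzyme gene Hmgcs1, of the regulator Srebf2 itself and of the later enzyme gene Msmo1, are shown because they hold the element. Capitals mark the element and any whole CCAAT box, on either strand (read as ATTGG on the other one). A match describes letters and not binding, and other forms of the element were not searched.
Hmgcs1, chr13:119690174-119690261, plus strand: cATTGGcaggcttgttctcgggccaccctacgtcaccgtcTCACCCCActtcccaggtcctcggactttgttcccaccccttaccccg
Srebf2, chr15:82147067-82147154, plus strand: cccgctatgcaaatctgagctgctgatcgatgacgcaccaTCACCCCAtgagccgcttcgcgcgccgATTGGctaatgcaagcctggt
Msmo1, chr8:64733734-64733761, minus strand, a shorter stretch because it lies inside the GENCODE span of the gene: ctattcTCACTCCAtccgcgcagCCAAT
The element ended 130 bases before the RefSeq start of Hmgcs1, 155 before that of Srebf2 and 170 before that of Msmo1.

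The libraries held between 41479573 and 58989166 counts, and each of the 27 genes had at least 139 counts in every library, so none was limited by absence. Levels are given in CPM, the count of a gene scaled by library size and a TMM factor, and these factors lay between 0.988 and 1.01. Ptprc, the gene of CD45, averaged 0.235 CPM in young mice against 0.230 CPM in aged mice. Epcam ran from 1635 to 1669 CPM in young and lower, from 1502 to 1523 CPM, in aged libraries, with no overlap. Mitochondrially encoded genes took 1.48% to 3.69% of the counts of young and 1.54% to 2.88% of those of aged libraries. Summed over 14 leukocyte markers the level ran from 15.7 to 22.7 CPM in young and from 16.2 to 23.5 CPM in aged libraries, and over 10 markers of stroma and endothelium from 2.30 to 4.18 and from 3.71 to 3.92 CPM. These sums, which include the endothelial gene Cdh5 at 0 in all libraries, overlapped between the ages.

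Transcripts of the cholesterol pathway were close to equal in young and aged epithelium, with small differences that mostly lay above 0, aged over young, and did not pass the test. None of the 27 genes was called in either direction (quasi-likelihood test of edgeR, with p adjusted by Benjamini-Hochberg from 0.38 to 0.989), where 0.623% of all genes tested were called higher and 0.784% lower. DESeq2 and limma-voom also called 0 of the 27. At an unadjusted p below 0.05 a single gene stood, Pmvk, which is 3.70% of the list against 9.23% of all genes tested. The log2 fold change, aged over young, was above 0 in 26 of the 27 genes (96.3%), against 51.8% of all genes tested. Its median was 0.09 over the list and 0.01 over all genes tested, and it ran from -0.12 (Tm7sf2) to 0.33 (Pmvk). The genes share the same 6 libraries, so the 26 are not separate observations. The list was also chosen with earlier results of these data known, so this share was not put to a test. Without aged replicate 3 the count above 0 was 20, and without young replicate 3 it was 21.

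**Figure D1:**
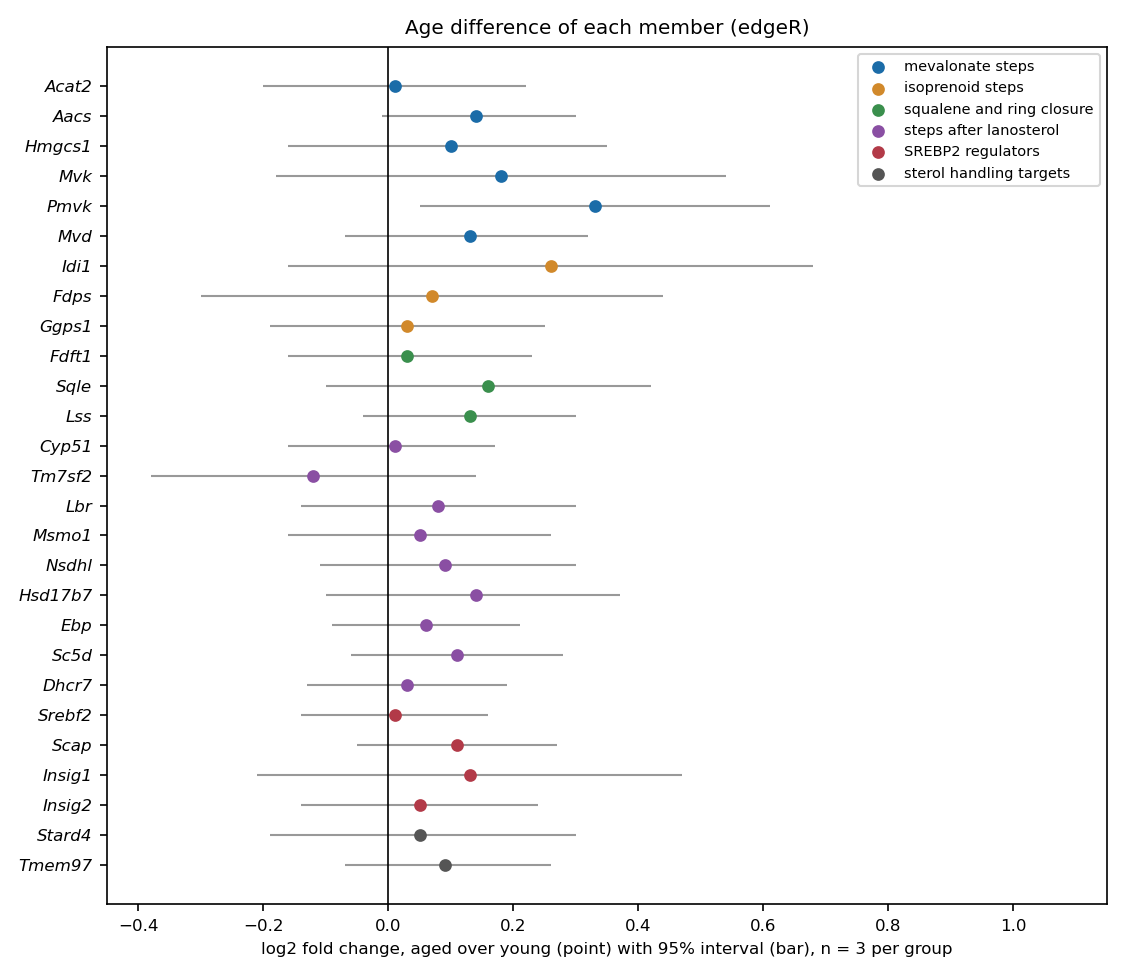
Log2 fold change of each gene, aged over young (horizontal axis), as a point coloured by its place in the pathway, with its 95% interval as a bar (edgeR, 3 libraries per age). Of the 27 points 26 lie to the right of 0, and 26 of the 27 intervals cross 0.

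The make-up of the sorted cells was read beside these values. All 11 Paneth and goblet markers had log2 fold changes below 0, where 51.8% of all genes tested lay above 0. Of the 11, 1 was called (Tff3, adjusted p = 0.0498), against 0.784% of all genes tested called lower. At an unadjusted p below 0.05 there were 8, against 9.23%. All aged libraries lay below the young ones in 7, against 7.49%. The summed level of the 11 ran from 27932 to 35709 CPM in young and from 20838 to 22630 CPM in aged libraries, with no overlap. Of that sum, Fcgbp held 10834 to 16376 CPM in young and 10071 to 10431 CPM in aged libraries. Of 15 absorptive enterocyte markers 6 lay above 0, with a median of -0.06, and their sum ran from 6781 to 8683 CPM in young and from 5278 to 7575 CPM in aged libraries. Of 14 crypt stem and dividing cell markers 10 lay above 0, with a median of 0.05, and none was called. Those below 0 were Lgr5 (-0.22), Ascl2 (-0.12), Olfm4 (-0.11) and Ccnb1 (-0.03). The largest above 0 were Top2a (0.25) and Mki67 (0.17), genes of dividing cells. The sum of the 14 ran from 6230 to 7087 CPM in young and from 6231 to 7039 CPM in aged libraries. Olfm4 alone held 3713 to 4654 CPM of it in young and 3625 to 4433 CPM in aged libraries. Summed over the pathway list the level ran from 2123 to 2353 CPM in young and from 2242 to 2418 CPM in aged libraries. In such bulk samples a shift in the share of a cell type and a change in RNA per cell cannot be told apart. The part of the lower secretory markers, or of the dividing cell markers, in the pathway values was not tested.

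The precision of these values bounds what the data allow. The 95% intervals, taken gene by gene with no adjustment, held 0 for 26 genes, all but Pmvk. For 24 genes the whole interval lay within 0.5 of 0 on the log2 scale, and the 3 genes that reached further were Pmvk, Mvk and Idi1. The difference of the group means was smaller than the pooled SD between libraries of the same age in 17 genes and larger in 10. The absolute log2 fold change had a median of 0.09 in the list and 0.10 over all genes tested, with median standard errors of 0.09 and 0.12.

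**Figure D2:**
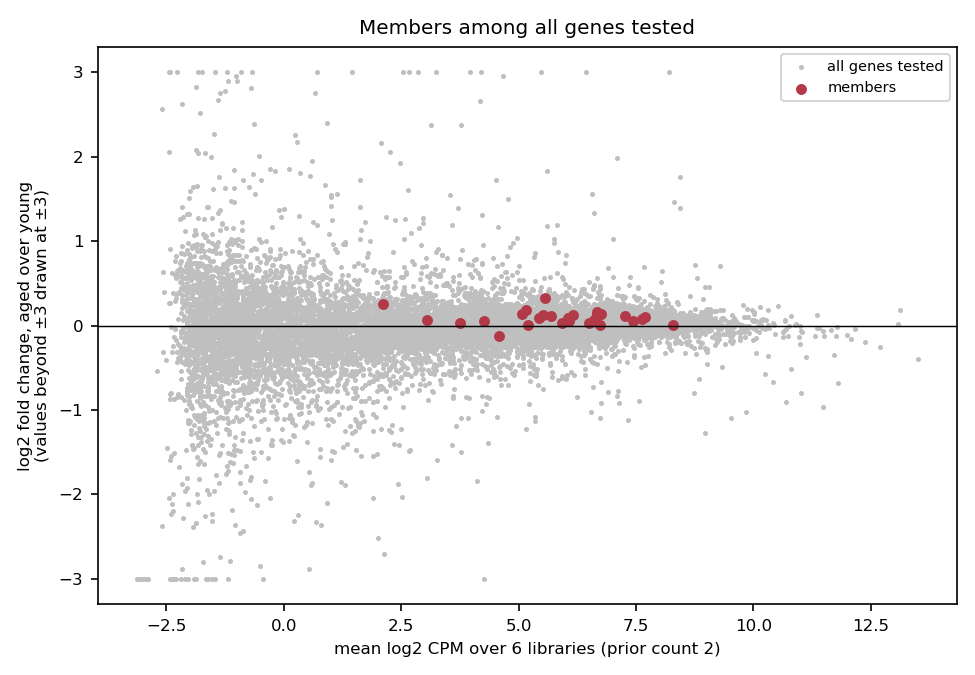
Mean level (log2 CPM with a prior count of 2, horizontal axis) against the log2 fold change, aged over young (vertical axis), for all 14923 genes tested (grey) and the 27 genes of the list (red). The red points lie in a narrow band from -0.12 to 0.33, within the cloud of all genes of the same abundance.

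The mevalonate steps join acetyl units into mevalonate and then phosphorylate and decarboxylate it. All 6 genes of this group had log2 fold changes above 0, from 0.01 to 0.33, with a median of 0.14. Hmgcs1, the cytosolic synthase that makes HMG-CoA, lies on chromosome 13 (119690379 to 119708260, GRCm38). It stood at 206.8, 222.6 and 176.7 CPM in the young libraries and at 185.4, 231.4 and 231.5 CPM in the aged ones. The ages overlapped, because aged replicate 1 lay below the first and the second young library. The log2 fold change was 0.10 ± 0.11 (SE, adjusted p = 0.887), with a 95% interval from -10.4% to 27.7%.

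Pmvk, the kinase that adds the second phosphate to mevalonate, lies on chromosome 3 (89454541 to 89469013). It read 40.4, 44.2 and 42.2 CPM in young and 60.9, 56.3 and 42.8 CPM in aged libraries. Aged replicates 1 and 2 stood above all young libraries, while aged replicate 3 lay within the young range. Its log2 fold change of 0.33 ± 0.12 had an unadjusted p of 0.0245 and an adjusted p of 0.38. Without aged replicate 3 it was 0.47 and passed (adjusted p = 0.0386), the only call of a list member in any alternative, over which its adjusted p ran from 0.0386 to 0.869.

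Aacs, which activates acetoacetate for lipid synthesis, was 1 of 2 list members whose age groups did not overlap. It stood at 97.6, 106.1 and 104.0 CPM in young and at 114.6, 116.0 and 109.2 CPM in aged libraries (log2 fold change 0.14 ± 0.07, adjusted p = 0.61). The other such member was Insig2, so 7.41% of the list had all aged libraries above the young ones, against 6.30% of all genes tested. No member had all aged libraries below the young ones, against 7.49% of all genes tested.

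Mvk, the kinase that adds the first phosphate, varied most among young libraries, with 31.0, 27.7 and 43.2 CPM, and read 42.7, 36.0 and 36.8 CPM in aged ones. Young replicate 3 was thus the highest of all 6 libraries for Mvk, although it was the lowest young library for most of the list. Acat2, the cytosolic thiolase that begins the pathway (not the cholesterol-esterifying enzyme sometimes given the same name, which is Soat2), stood at 36.3, 38.0 and 35.6 CPM in young and 37.6, 32.8 and 40.4 CPM in aged libraries. Its log2 fold change of 0.01 ± 0.09 took either sign over the alternatives, from -0.06 to 0.08. Mvd, the decarboxylase, averaged 43.8 ± 1.11 and 47.9 ± 4.44 CPM (SD, n = 3 each).

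The isoprenoid steps isomerise the product of Mvd and join its units, and their products also feed protein prenylation, dolichol and ubiquinone. Idi1, the isomerase, had 3.80, 4.70 and 3.34 CPM in young and 5.22, 5.04 and 3.97 CPM in aged libraries. Aged replicates 1 and 2 lay above every young library and aged replicate 3 did not. The log2 fold change was 0.26 ± 0.19 (adjusted p = 0.808), and the 95% interval from -10.7% to 60.7% was the widest of the list on the log2 scale, for the gene with the fewest counts. Ggps1, which makes geranylgeranyl diphosphate, read 13.3, 12.7 and 13.9 CPM and 13.5, 13.5 and 14.0 CPM. Its highest library exceeded its lowest by a ratio of 1.10. Fdps, which makes farnesyl diphosphate, averaged 8.14 ± 1.16 and 8.54 ± 1.40 CPM.

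Squalene is made by Fdft1, oxidised by Sqle and closed into lanosterol by Lss. Sqle, a rate-limiting enzyme on chromosome 15 (59315077 to 59331192), stood at 93.0, 110.0 and 86.9 CPM in young and at 92.8, 116.7 and 114.0 CPM in aged libraries. Aged replicates 2 and 3 lay above all young libraries and aged replicate 1 among them, as for Hmgcs1. The log2 fold change was 0.16 ± 0.11 (adjusted p = 0.81; 95% interval -6.77% to 33.5%). Lss averaged 68.5 ± 4.93 and 75.1 ± 1.65 CPM (0.13 ± 0.08, adjusted p = 0.701). Fdft1, the first enzyme committed to sterol, averaged 59.9 ± 3.34 and 61.4 ± 5.35 CPM.

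The 9 genes after lanosterol remove methyl groups and shift and reduce bonds in the sterol rings. Of these, 8 had log2 fold changes above 0, none over 0.14, and Tm7sf2 had -0.12. Cyp51, the demethylase that acts on lanosterol, read 103.9, 114.8 and 101.1 CPM in young and 105.0, 106.7 and 109.8 CPM in aged libraries (0.01 ± 0.07, adjusted p = 0.989). Its aged libraries all lay inside the young range. Tm7sf2, a sterol reductase, stood at 22.2, 28.3 and 24.6 CPM in young and 24.5, 23.9 and 20.8 CPM in aged libraries (-0.12 ± 0.11, adjusted p = 0.855), and it was the only list member below 0. Lbr, a protein of the inner nuclear membrane with the same reductase activity, averaged 193.6 ± 11.0 and 204.7 ± 24.1 CPM (0.08 ± 0.10, adjusted p = 0.891).

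Ebp, the isomerase that moves the ring bond, stood at 93.8, 95.3 and 96.2 CPM in young and 103.8, 99.0 and 95.5 CPM in aged libraries, and aged replicate 3 lay inside the young range. Msmo1, a sterol oxidase, averaged 66.7 ± 3.42 and 69.1 ± 7.67 CPM, and Nsdhl, the dehydrogenase that follows it, 41.9 ± 3.00 and 44.6 ± 3.69 CPM. Hsd17b7, the ketosteroid reductase of the same demethylation, averaged 32.3 ± 2.62 and 35.5 ± 3.80 CPM, with the largest log2 fold change of the group (0.14 ± 0.10, adjusted p = 0.821). Sc5d, the desaturase, averaged 50.2 ± 2.70 and 54.1 ± 1.89 CPM. Dhcr7, which makes cholesterol in the last step of its branch, averaged 89.6 ± 3.34 and 91.6 ± 4.45 CPM.

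Among the regulators, Srebf2 had the narrowest range over the 6 libraries of the whole list. It lies on chromosome 15 (82147181 to 82205379), and the promoter shown above belongs to it. Srebf2 read 302.3, 321.0 and 310.1 CPM in young and 306.2, 311.9 and 323.7 CPM in aged libraries. The highest of the 6 exceeded the lowest by a ratio of 1.07, the smallest of the 27. The pooled SD between libraries of the same age was smaller for Insig2, at 0.03 against 0.04 for Srebf2 on the log2 scale. The log2 fold change was 0.01 ± 0.07 (adjusted p = 0.981), with a 95% interval from -8.95% to 11.8%. Scap, the escort and sterol sensor, read 139.3, 154.4 and 150.8 CPM in young and 163.0, 164.9 and 151.5 CPM in aged libraries, where aged replicate 3 fell inside the young range (0.11 ± 0.07, adjusted p = 0.78).

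The paired retention proteins differed in their spread. Insig1, itself a SREBP2 target, read 92.2, 119.7 and 84.7 CPM in young and 91.1, 125.4 and 107.8 CPM in aged libraries. Its highest library exceeded its lowest by a ratio of 1.48, and the ages overlapped (0.13 ± 0.15, adjusted p = 0.888). Insig2, which is not induced by SREBP2, read 19.0, 18.7 and 19.0 CPM and 19.1, 20.1 and 19.5 CPM, a ratio of 1.08. All 3 aged libraries lay above the young ones by a margin that is 0.05 ± 0.09 as a log2 fold change (adjusted p = 0.932).

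Stard4, a sterol carrier of the cytosol, stood at 180.6, 190.3 and 143.3 CPM in young and at 166.8, 181.4 and 185.9 CPM in aged libraries (0.05 ± 0.11, adjusted p = 0.946). Young replicate 3 was the lowest of the 6, and without it the log2 fold change was -0.06. Tmem97, an endoplasmic reticulum membrane protein that is a SREBP2 target, read 66.6, 64.5 and 62.5 CPM in young and 64.3, 72.7 and 69.4 CPM in aged libraries (0.09 ± 0.07, adjusted p = 0.824). Aged replicate 1 was again the lowest of its group.

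**Figure D3:**
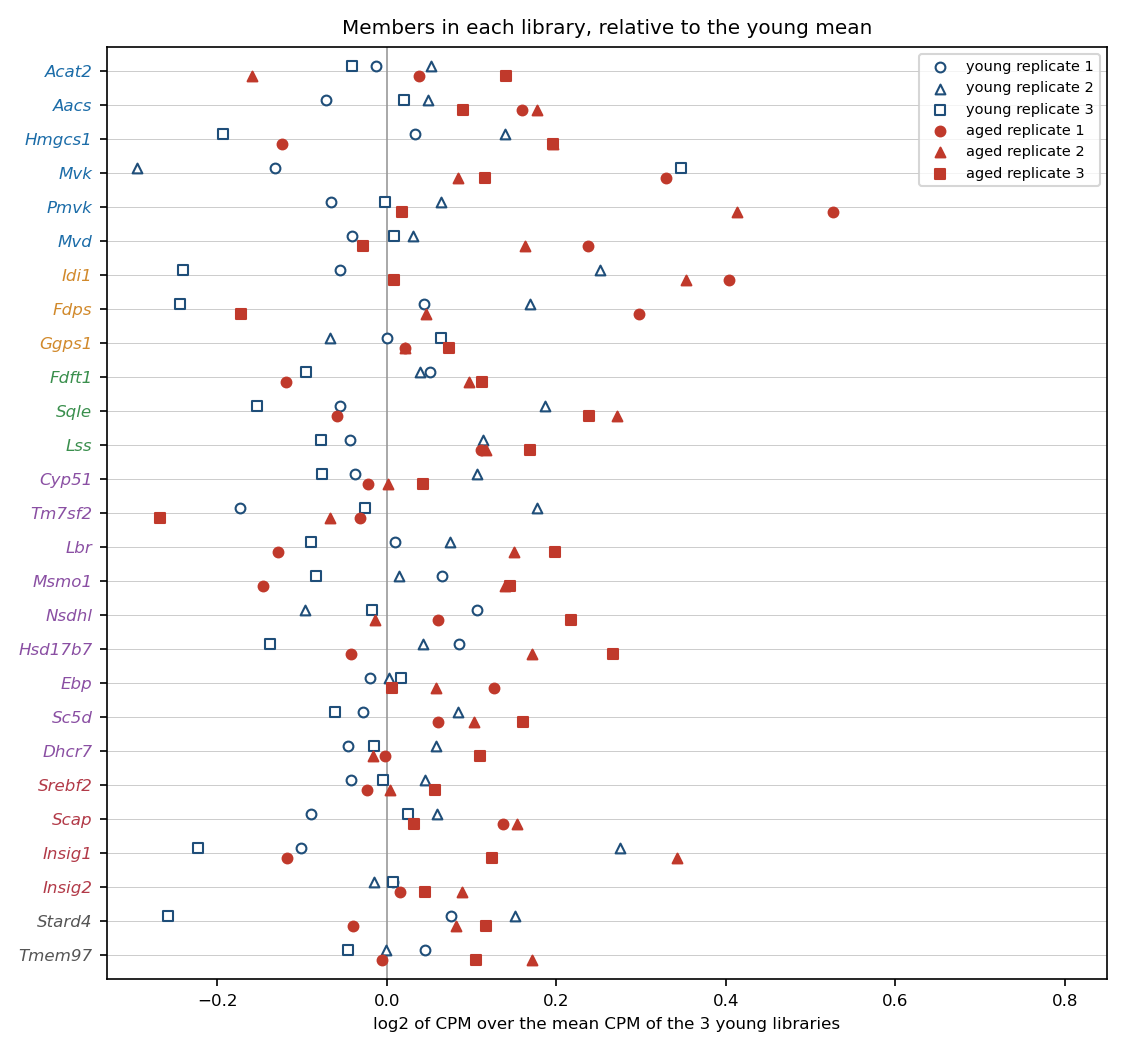
Each gene (rows, in pathway order) in each library (open blue for young, filled red for aged, with a shape per replicate), as the log2 of its CPM over the mean CPM of the 3 young libraries. Open squares (young replicate 3) lie leftmost of the open points in 15 of the 27 rows and open triangles (young replicate 2) rightmost in 18.

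Libraries of the same age differed in how many of the genes lay high or low, most of all among young mice. Young replicate 2 was the highest young library in 18 of the 27 genes and young replicate 3 the lowest in 15. In young replicate 2, 22 of 27 genes lay above the young mean, with a median deviation of 0.06 on the log2 scale, and in young replicate 3, 20 of 27 lay below it, with a median of -0.05. Young replicate 1 had 11 of 27 above. Among aged libraries, replicate 3 was the highest in 14 genes and replicate 1 the lowest in 14. In aged replicates 1, 2 and 3 there were 10, 16 and 17 of 27 above the aged mean, with median deviations of -0.03, 0.04 and 0.04. Over all genes tested the same medians lay between 0.00 and 0.01 in every library, and between 49.5% and 52.6% of genes were above their group mean. The median deviations of the list thus ran from -0.05 to 0.06 within an age, beside a median difference between ages of 0.09.

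**Figure D4:**
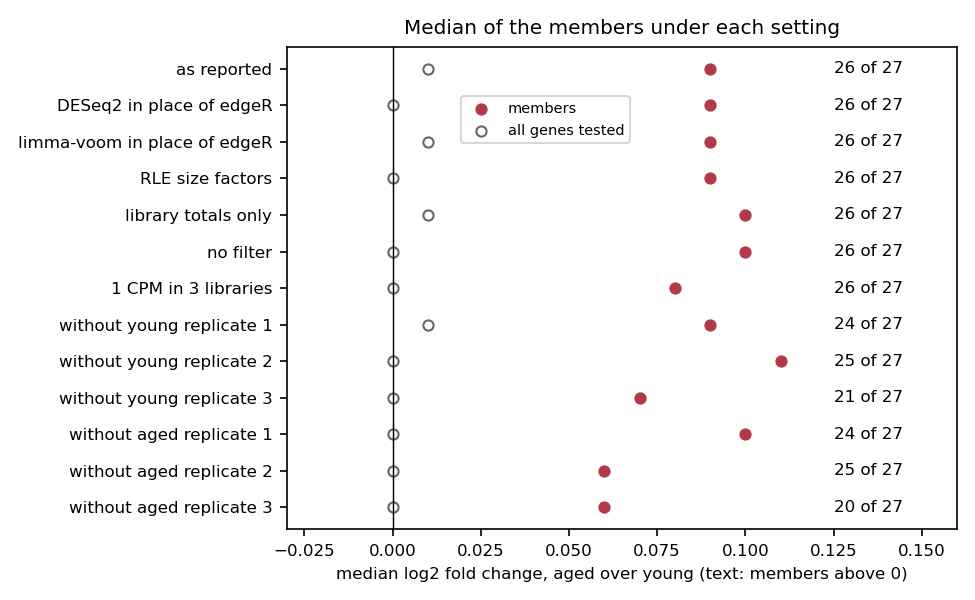
Median log2 fold change, aged over young, of the 27 genes and of all genes tested under each processing setting, with the number of the 27 above 0. The median of the list lies between 0.06 and 0.11 in all 12 alternatives, and the lowest counts above 0 are 20 without aged replicate 3 and 21 without young replicate 3.

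Levels of different genes can be compared only per length. TPM values, which divide counts by the length of the union of a gene's exons and rescale each library to the same sum, were averaged over the 6 libraries for that purpose and not used between ages, since the median of all genes tested itself stood 0.08 higher (log2) in aged libraries on that scale. Tmem97 was the most abundant at 151.8 ± 13.9 TPM (SD over 6 libraries), followed by Hmgcs1 at 142.8 ± 21.5, Srebf2 at 136.2 ± 9.24, Ebp at 131.7 ± 7.53 and Lbr at 131.2 ± 16.9 TPM. These 5 neighbours differed by less than the larger SD of each pair in order. Insig1 was sixth at 105.1 ± 20.5 TPM, above Insig2 at 17.3 ± 1.07 TPM. Lbr stood likewise above Tm7sf2, at 17.1 ± 1.88 TPM, though both enzymes carry out the same step. With the longest transcript as length, Srebf2 was the highest at 152.6 TPM and Tmem97 the fifth at 120.2 TPM.

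**Figure D5:**
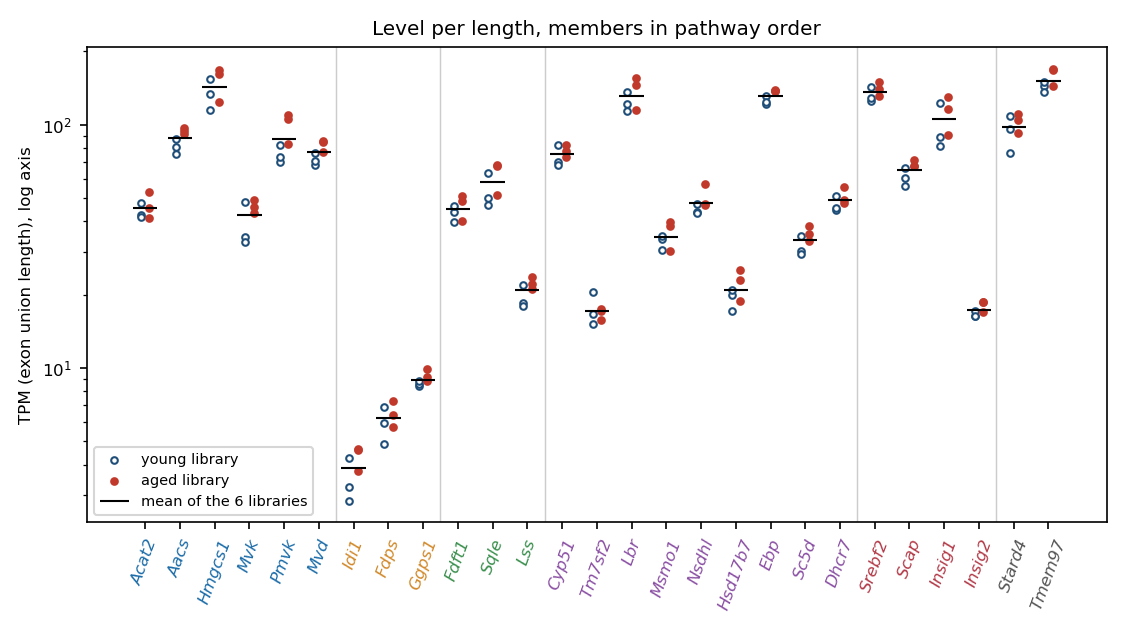
Level per length (TPM from the exon union, log axis) of each gene in pathway order, with open blue points for young libraries, filled red points for aged libraries and a bar for the mean of the 6. The 3 isoprenoid genes Idi1, Fdps and Ggps1 stand lowest, at 3.89, 6.20 and 8.93 TPM.

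The isoprenoid steps were the low point of the pathway as counted. Idi1 stood at 3.89 ± 0.737 TPM, Fdps at 6.20 ± 0.886 TPM and Ggps1 at 8.93 ± 0.511 TPM, below every other gene of the list. All 3 have a near-identical transcript under another gene in GENCODE M21, at an identity of at least 95% over at least 500 bases on the same strand. For Idi1 the transcript of Gm13502 matched over 684 bases at 100% and that of Gm35570 over 681 bases at 97.7%. For Fdps there were 5 such genes, among them Gm3571 over 1062 bases at 98.9% and Gm43738, which lies at the same locus and shares 1124 exon bases with it on the same strand. For Ggps1 there was Gm5630, over 903 bases at 97.2%. The 2 Idi1 copies held 0 and 74 counts over the 6 libraries against 1284 for Idi1 itself. Copies were also found for the more abundant genes Acat2 (Acat3), Fdft1 (Gm6781) and Tmem97 (Gm5809). Tm7sf2 shares 532 exon bases on the same strand with its neighbour Vps51, which held 16913 counts against 7090. How reads that fit more than 1 gene were counted is not given in the sources used here, and its part in the low levels was not tested. The counts of these 7 genes are therefore uncertain as levels. Exons of 8 list members (Hmgcs1, Idi1, Ggps1, Fdft1, Lss, Cyp51, Lbr and Scap) overlap a gene on the opposite strand, for Fdft1 over 774 bases shared with Ctsb. The kit keeps strand, but the strand setting of the counting is not given in the sources used here.

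Genes beside the pathway were read from lists set up for this purpose, and none of their tested genes was called, as in the list itself. Of 15 tested genes that process SREBP or degrade sterol-regulated proteins, 9 lay above 0, against 51.8% of all genes tested. The median log2 fold change of this list was 0.03. Its most abundant member per length, Pgrmc1, averaged 126.4 ± 6.92 CPM among young mice and 116.3 ± 4.98 CPM among aged ones (-0.12 ± 0.07, adjusted p = 0.733). Rnf145, a ubiquitin ligase of the sterol response, had the largest difference, with 83.9, 97.5 and 83.9 CPM in young and 108.7, 105.5 and 104.1 CPM in aged libraries. All aged libraries lay above the young ones (0.26 ± 0.08, unadjusted p = 0.00912, adjusted p = 0.227). Of the 15 genes 1 was so separated, against 6.30% of all genes tested. At an unadjusted p below 0.05 there was also 1 of the 15, against 9.23%. Of 14 tested genes that use isoprenoids, 7 lay above 0, against the same 51.8%, and the median was 0.00. Rabggtb, a subunit of a prenyl transferase, had -0.02 ± 0.08 (adjusted p = 0.982) and Pggt1b, a subunit of another, 0.17 ± 0.10 (adjusted p = 0.727).

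The fatty acid arm, driven by SREBP1, had 10 of 13 tested genes above 0, against 51.8% of all genes tested, and a median of 0.12. At an unadjusted p below 0.05 there were 2 of the 13, against 9.23% of all genes tested. All aged libraries lay above the young ones in 3 of the 13, against 6.30%, and below them in 0, against 7.49%. Fads2, a desaturase of polyunsaturated fatty acids, was its most abundant member per length in TPM. Its level was 285.3, 266.8 and 292.6 CPM in young and 316.2, 328.4 and 337.4 CPM in aged libraries. The groups did not overlap (0.22 ± 0.07, unadjusted p = 0.0118, adjusted p = 0.26). Scd2, another desaturase, had the largest difference, from 16.7, 32.0 and 18.5 CPM to 42.0, 61.6 and 15.1 CPM, and aged replicate 3 was the lowest of all 6 (0.82 ± 0.54, adjusted p = 0.797). Scd1, Thrsp and Pnpla3 were too low to test. Scd1 held 8 counts in all young libraries together and 5 in the aged.

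Of 14 tested genes of sterol export and LXR, the nuclear receptors that answer to excess sterol, 5 lay above 0, against 51.8% of all genes tested, and the median was -0.11. The most abundant per length, the phospholipid enzyme gene Lpcat3, had -0.11 ± 0.11 (adjusted p = 0.866). Abca1, the sterol exporter, had the largest difference but few counts, at 2.14 ± 1.02 CPM among young mice and 2.98 ± 1.37 CPM among aged ones (0.49 ± 0.44, adjusted p = 0.844). Abcg1, a related exporter, also lay above 0 (0.31 ± 0.25, adjusted p = 0.827). At an unadjusted p below 0.05 there were 2 of the 14 genes, against 9.23% of all genes tested. These 2, Abcg1 and Abcg8 are named after their values were seen. Abcg5, a subunit of the apical sterol exporter, averaged 110.5 ± 13.4 and 81.9 ± 13.5 CPM (unadjusted p = 0.00876, adjusted p = 0.22), and its ages overlapped. Abcg8, the other subunit, averaged 87.7 ± 19.0 and 83.2 ± 14.3 CPM (-0.08 ± 0.18, adjusted p = 0.96). Soat2, which esterifies cholesterol, averaged 58.6 ± 4.54 and 70.1 ± 7.05 CPM (unadjusted p = 0.0227, adjusted p = 0.364). The difference between these lists and the pathway was not tested.

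Paralogues of the pathway genes were read last. Acat1, the mitochondrial thiolase, had -0.09 ± 0.10 (adjusted p = 0.879). Acat3 held 43 counts over the 6 libraries, below the level for testing, and Idi2 held 0 in all of them, which allows up to 3 counts per library, or between 0.0507 and 0.0720 CPM, for counting error only.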

How the data were processed

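RNA of sorted epithelium was measured in 6 libraries, made from poly(A) RNA with a kit that keeps strand (per the labels' protocols). The authors deposited raw counts per gene, not normalised, since the values are whole numbers with unequal sums. Among the tools in the submitters' processing notes are STAR, HISAT2 2.1.0 and featureCounts 1.6.4, without roles, and the build there is GRCm38. For the annotation release, the strand setting and shared reads, the choice is not given in the sources used here.

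Genes were kept by filterByExpr (minimum count 10), scaled by TMM and tested with age as the term by edgeR 4.0.16 (quasi-likelihood, robust, R 4.3.3). P-values were Benjamini-Hochberg adjusted over all 14923 genes, with a threshold of 0.05. A standard error is the log2 fold change over the root of F, and intervals are 95%. The alternatives were DESeq2 1.42.0, limma-voom (limma 3.58.1), other scaling, other filters and leaving out each library. Near copies were found with blastn 2.17.0 among GENCODE M21 transcripts, and promoters are from RefSeq. Positions are GENCODE M21 on GRCm38. No 2 libraries of a group agreed within sampling noise (chi-square per gene at least 27.2, where noise gives about 1).

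The members, gene lists and motifs were chosen with earlier results of these data known. The rule for values in every library took called members, the 4 members with the highest and the 4 with the lowest log2 fold change, the most abundant member of each of 6 role groups, and 8 fixed genes. Aacs was added after its values were seen. From each companion list it took called genes, or the most abundant and the largest difference. The symbol Ufd1 was not matched. A gene that this rule took from the companion lists is not reported here.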

Additional observations from a re-analysis of the deposited data

How the results depend on the processing

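The median log2 fold change of the 27 genes stayed between 0.06 and 0.11 over the 12 alternatives, and between 20 and 26 of the genes lay above 0. No list member was called higher under DESeq2, limma-voom, other scaling or other filters, and between 0 and 1 were called when 1 library was left out, Pmvk without aged replicate 3, and Acat2, Cyp51, Srebf2 and others near 0 took either sign. No member was called lower in any alternative. Among companion genes 0 to 1 were called when 1 library was left out. The 2 genes whose ages did not overlap became 1 when only library totals were used for scaling, and 1 when 3 libraries had to reach 1 CPM. With no filter they became 3. When 1 library was left out there were between 2 and 11, where fewer libraries make separation easier. Without young replicates 1, 2 and 3 there were 4, 7 and 5, and without aged replicates 1 and 3 there were 11 and 7. The matching shares of all genes were not counted for these settings, so these counts have no background beside them. Over all genes, 93 were called higher as reported, 206 with DESeq2, 168 with no filter and between 35 and 135 when 1 library was left out (43 and 45 without young replicates 1 and 3, 37 and 35 without aged replicates 1 and 2). For lower genes these counts were 117, 276, 245 and between 30 and 135 (66 without young replicate 1 or 3, 30 and 37 without aged replicates 1 and 2), and 67 when 3 libraries had to reach 1 CPM. The cause was not tested. No paired analysis was run, because the labels name no pairs and give no replicate numbers, and the numbers used here follow accession order.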
